A study of Arabidopsis thaliana with 12 samples.

Results

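The 8 genes described here are markers of abscisic acid, the hormone of water deficit and seed dormancy, measured in Arabidopsis thaliana seedlings of 6 lines at ambient temperature and in the cold. They were chosen by probe set, 8 of the 22810 on the Affymetrix ATH1 array, and 8 of 8 were among the 13652 probe sets tested. They are 247095_at (RAB18), 248352_at (RD29B), 257280_at (NCED3), 266327_at (ATHB7), 253872_at (RD26), 247717_at (LTP3), 247718_at (LTP4) and 258498_at (AT3G02480). The platform annotation named AT3G02480 alone. The names of the other 7 came with the choice of probe sets, and each was found as a symbol or synonym in the RefSeq gene table.

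Plants make abscisic acid from carotenoids, and the 9-cis-epoxycarotenoid dioxygenases carry out the step that usually limits the rate. The hormone binds soluble receptors that block a group of protein phosphatases, which frees SnRK2 kinases to activate bZIP factors. These factors switch on genes of protective proteins. In Arabidopsis seedlings the freezing-tolerance genes of the CBF pathway respond to cold largely without abscisic acid, whereas genes such as RAB18 and RD29B are known to respond strongly to the hormone and to drought. The members were NCED3, an enzyme of hormone synthesis; the transcription factors RD26, of the NAC family, and ATHB7, a homeodomain-leucine zipper protein; and 5 effector genes. Of the effectors, RAB18 is a dehydrin, RD29B a hydrophilic stress protein, AT3G02480 a gene of the late embryogenesis abundant class, and LTP3 and LTP4 are lipid transfer proteins of the cell surface.

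Whole seedlings at growth stage 1.02, from a growth room at 20 °C, gave 12 arrays, 1 for each line at each temperature. All groups shared 4 days in a fridge and a cycle of 16 h light and 8 h dark. The control lines were wild-type Col-0 and Col-aeq, which carries the calcium reporter apoaequorin. The lines fab1 and fad2 are labelled as EMS mutants. FAD2 is the oleate desaturase of the endoplasmic reticulum, and fab1 plants elongate less palmitate. The triple mutant fad3/7/8, made by crossing EMS mutants that lack linoleate desaturases, carries apoaequorin per its titles. 35S-FAD3 is named in the titles as an overexpressor of a linoleate desaturase, driven by a constitutive promoter, while its genotype label gives apoaequorin alone; it was grouped by its title. The fad2 and fab1 labels name no reporter. How cold the treatment was, and how long it lasted, is not stated in the labels. With 1 array per line and temperature, the p-values measure how far lines differ in their cold change, or what line and temperature leave unexplained, and not the spread between separate growths. Fewer cells that express a gene and less RNA per cell cannot be told apart in whole seedlings. The Col-aeq ambient array stood apart, with a 3' to 5' actin signal ratio of 7.00 where the other 11 arrays had 1.96 to 2.21, so results are also given without both Col-aeq arrays where this changed a call.

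The 8 genes fell into different patterns. Cold raised the synthesis gene and both transcription factors in 6 of 6 lines. RAB18 and LTP3 passed as lower in the cold and fell in 5 of 6 lines, but both calls were lost without some single arrays. In fad2 the 5 effector genes were higher than in the control lines at both temperatures, while NCED3, RD26 and ATHB7 did not pass the test. Differences below are on the log2(signal + 1.6) scale, from limma, with p-values adjusted over all 13652 probe sets and a threshold of 0.05.

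**Figure D1:**
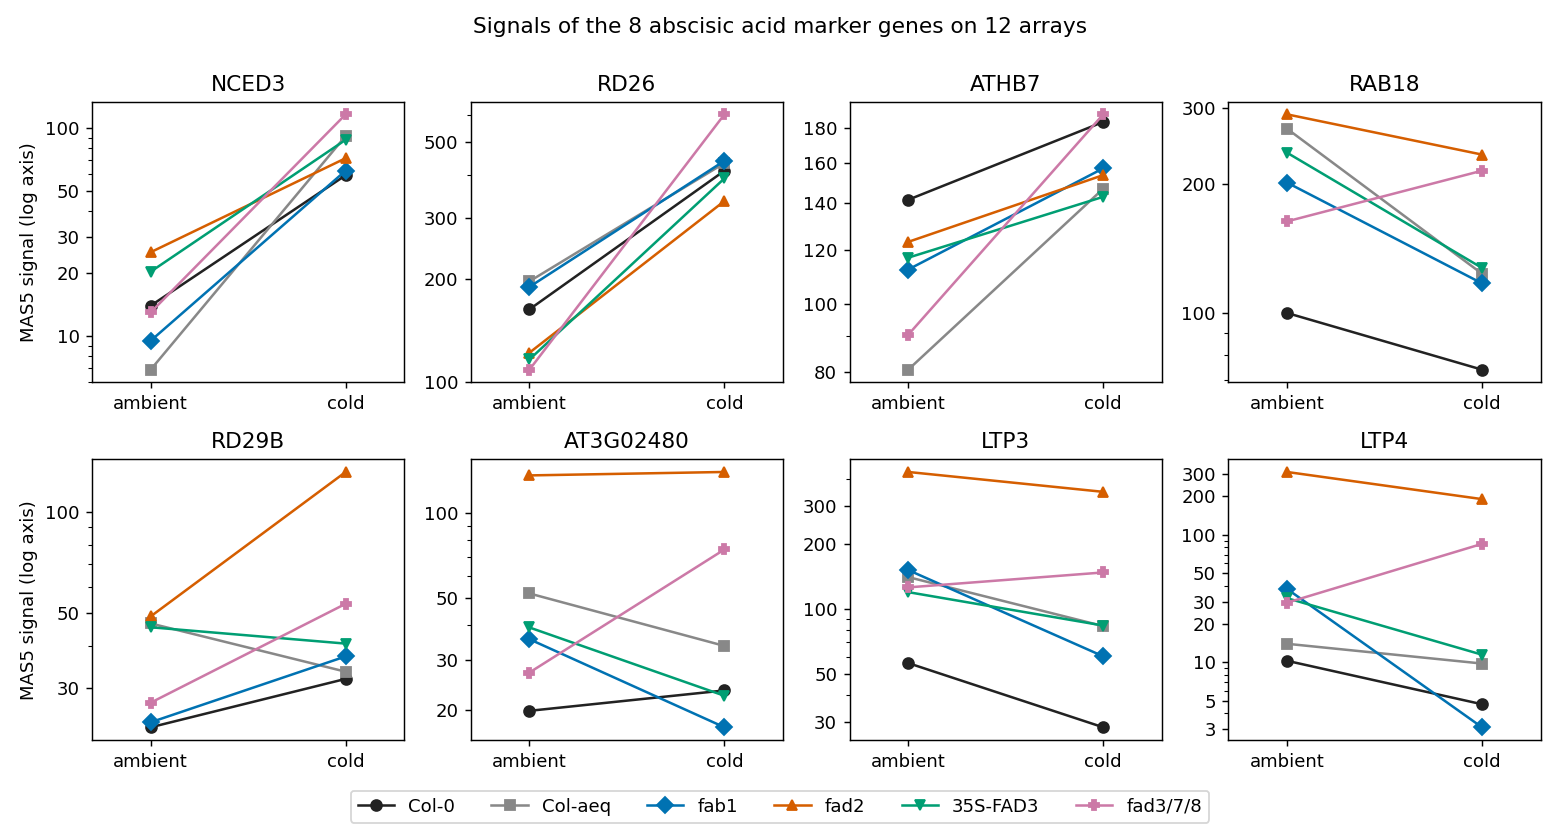
MAS5 signal of each gene at ambient temperature and in the cold, 1 point per array and 1 line per genotype, on log axes that differ between panels. NCED3, RD26 and ATHB7 rose in 6 of 6 lines, and the fad2 arrays lay above the 10 others for LTP3, LTP4 and AT3G02480.

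The comparison of cold with ambient temperature asked how the hormone markers responded across the lines. NCED3, the synthesis gene, had ambient signals of 14.0 in Col-0, 6.9 in Col-aeq, 9.5 in fab1, 25.3 in fad2, 20.4 in 35S-FAD3 and 13.0 in fad3/7/8. In the cold its signals were 59.3, 91.6, 62.4, 71.6, 87.8 and 116.3 in the same order. The cold arrays did not overlap the ambient ones. NCED3 rose by 2.4 (SE 0.23, 5.29-fold, adjusted p = 1.75e-05). The mean ambient signal of 14.9 lay under the filter level of 22.9, so NCED3 was tested because of its cold signals, and the size of its rise is uncertain.

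RD26, a transcription factor of drought and hormone responses, had ambient signals of 108.4 to 196.3 (median 142) and cold signals of 336.8 to 603.1 (median 424). It rose by 1.56 (SE 0.152, 2.95-fold, adjusted p = 2.04e-05). ATHB7, a factor that in Arabidopsis dampens the hormone response, moved less. Its ambient signals were 80.5 to 141.6 (median 115) and its cold signals 143.0 to 188.1 (median 155), so the groups again did not overlap, though the highest ambient array, Col-0, came close to the lowest cold array, 35S-FAD3. ATHB7 rose by 0.56 (SE 0.114, 1.47-fold, adjusted p = 0.00325). RD26, ATHB7 and NCED3 were 3 of 8 members higher in the cold, where 15.1% of tested probe sets were higher and 33.5% passed in either direction. Because NCED3 entered the test through its cold signals, its place in this count is no support for a share above the background. For 5.72% of tested probe sets all 6 cold arrays lay above all 6 ambient arrays, and these 3 genes were among them. The reverse held for 6.61% and for 0 members.

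The effector genes had other patterns. RAB18 had signals of 100.2 in Col-0, 268.4 in Col-aeq, 201.2 in fab1, 289.8 in fad2, 236.1 in 35S-FAD3 and 163.5 in fad3/7/8 at ambient temperature, and 74.0, 123.6, 117.4, 233.7, 127.5 and 214.4 in the cold. It was lower in the cold in 5 of 6 lines and higher in fad3/7/8, and the groups overlapped. RAB18 fell by 0.52 (SE 0.164, adjusted p = 0.0313). That call was lost when any array was left out other than those of fad3/7/8 (adjusted p 0.0508 to 0.1), without both Col-aeq arrays (0.055) and without the signal filter (0.0586).

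LTP3 had ambient signals of 56.1 to 430.1 (median 133) and cold signals of 28.3 to 348.0 (median 83.5), with wide overlap because the lines differed more than the temperatures. It too was lower in the cold in 5 of 6 lines. LTP3 fell by 0.60 (SE 0.165, adjusted p = 0.0169). The call was lost without either Col-0 array or either fab1 array (adjusted p 0.0568 to 0.0575). RAB18 and LTP3 were 2 of 8 members lower in the cold, against a background of 18.4%, and no test of the members as a list was made. The median cold difference of the 8 members was 0.18, beside -0.03 over all tested probe sets.

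The remaining effectors did not pass for cold. LTP4 stood at -0.83 (SE 0.423, adjusted p = 0.155), with ambient signals from 10.3 to 311.3 and cold signals from 3.1 to 190.7. It was lower in 5 of 6 lines, and leaving out either fad3/7/8 array turned it into a call (-1.3, adjusted p 0.0157 and 0.0163). Leaving out either fab1 array, where the cold difference was -3.06, brought it to -0.39 (adjusted p 0.443 and 0.435). RD29B stood at 0.46 (SE 0.211, adjusted p = 0.116), with ambient signals from 23.0 to 49.0 and cold signals from 32.0 to 131.2. It was higher in 4 lines and lower in Col-aeq and 35S-FAD3, and it passed without both Col-aeq arrays (0.65, adjusted p = 0.0162). AT3G02480 stood at -0.11 (SE 0.26, adjusted p = 0.772), higher in 3 lines and lower in 3.

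**Figure D2:**
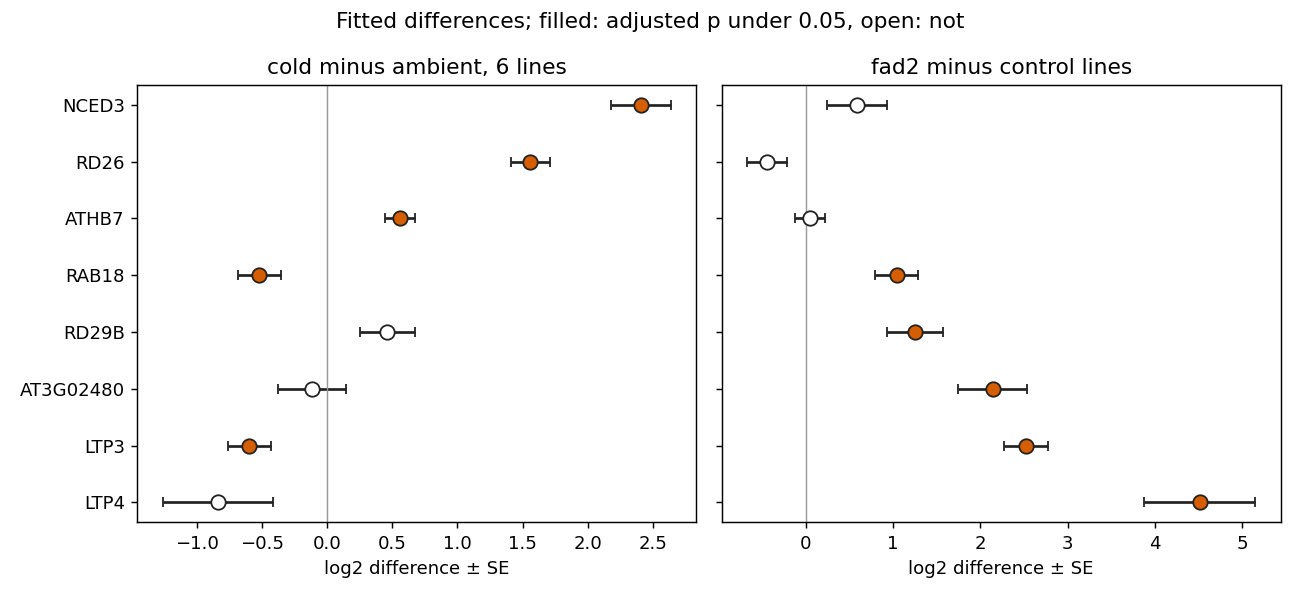
Fitted log2 differences with limma's SE for each gene, cold minus ambient over 6 lines on the left and fad2 minus the mean control line on the right; the horizontal scales differ. Filled points passed an adjusted p of 0.05. Cold raised NCED3, RD26 and ATHB7, and fad2 was higher for the 5 genes RAB18, RD29B, AT3G02480, LTP3 and LTP4.

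Other genes of the pathway and of drought response were read from 9 lists of 129 genes, of which 14 were paired with a probe set and 10 passed the filter. The platform annotation paired no receptor, phosphatase or SnRK2 kinase gene with a probe set, so these were not read. The lists were chosen with earlier results of these data known. No count from them, for cold or for fad2, is therefore support for a difference from the background. In the cold 5 of the 10 tested genes were higher and 2 lower (median 0.68), where 15.1% and 18.4% of tested probe sets were. All 5 came from the list of other hormone and drought response genes, with 7 tested. The lists of hormone synthesis and of catabolism, with 1 and 2 tested genes, gave 0 higher. The 5 were the freezing-protection genes COR15B (2.79, SE 0.235), COR15A (2.51, SE 0.168) and COR47 (1.4, SE 0.084), the dehydrin LTI30 (2.26, SE 0.0721) and the late embryogenesis abundant gene LEA4-5 (1.74, SE 0.235), which are known as targets of the CBF or hormone pathways. HIS1-3, a linker histone gene induced by drought, fell by 0.94 (SE 0.16, adjusted p = 0.00104), and NXD1, needed for neoxanthin in hormone synthesis, fell by 0.38 (SE 0.0987, adjusted p = 0.0124). UGT71C5, which glucosylates the hormone, stood at -0.06 (adjusted p = 0.656) and BGLU33, a glucosidase that releases it, at -0.38 (adjusted p = 0.0514). Of 2 other lipid transfer protein genes, 0 passed for cold: LTP8 stood at -0.28 (adjusted p = 0.0688) and LTP10 at -0.03 (adjusted p = 0.875).

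The comparison of fad2 with the control lines asked whether the markers differed in this mutant line over both temperatures. With 1 EMS line, the loss of the desaturase cannot be told apart from other differences of that line. LTP4 differed most in size. Its signals in fad2 were 311.3 at ambient temperature and 190.7 in the cold, against 10.3 and 4.7 in Col-0 and 14.0 and 9.8 in Col-aeq. Both fad2 arrays lay above the 10 others, which reached 85.0 at most. LTP4 was higher in fad2 by 4.51 (SE 0.635, 22.8-fold, adjusted p = 0.00413). The control signals were all under the filter level of 22.9, so the size is uncertain.

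LTP3 had signals of 430.1 and 348.0 in fad2, against 56.1 and 28.3 in Col-0 and 140.3 and 83.2 in Col-aeq at ambient temperature and in the cold. The 10 arrays of the other lines ranged from 28.3 to 151.2, below both fad2 arrays. LTP3 was higher in fad2 by 2.52 (SE 0.247, 5.76-fold, adjusted p = 0.000766), and it was the single member that still passed when either fad2 array was left out (adjusted p 0.0198 and 0.0222). LTP3 and LTP4 are neighbours with 0 annotated genes between them in TAIR10.1. They encode closely related proteins, and whether each probe set also detects the transcript of the other was not tested. LTP8 (0.37, adjusted p = 0.187) and LTP10 (0.24, adjusted p = 0.446), of the same family, did not pass in fad2.

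AT3G02480 had signals of 136.3 and 140.2 in fad2 and 17.3 to 74.3 on the other 10 arrays, with no overlap. It was higher in fad2 by 2.14 (SE 0.391, 4.41-fold, adjusted p = 0.0103). LTP3, LTP4 and AT3G02480 were 3 members with both fad2 arrays above the 10 others, against 8.52% of tested probe sets. RD29B had fad2 signals of 49.0 and 131.2, against 23.0 and 32.0 in Col-0 and 46.7 and 33.6 in Col-aeq. At ambient temperature fad2 lay just above Col-aeq and 35S-FAD3 (45.5), and in the cold it lay far above the next line, fad3/7/8 (53.4). RD29B was higher in fad2 by 1.25 (SE 0.317, adjusted p = 0.0347).

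RAB18 had signals of 289.8 and 233.7 in fad2, the highest of the 6 lines at each temperature, but the next lines were close, Col-aeq with 268.4 at ambient temperature and fad3/7/8 with 214.4 in the cold. RAB18 was higher in fad2 by 1.04 (SE 0.246, 2.06-fold, adjusted p = 0.027). For this gene the control line Col-aeq stood above Col-0 by 1.07, a gap of like size. The 5 effector genes were 5 of 8 members higher in fad2, against a background of 5.19% (9.48% in either direction), with 0 lower against 4.29%. The members were chosen with earlier results of these data known. No count or median of the members, here or for cold, is therefore support for a difference from the background. Centring each array on its median moved the median fad2 difference of all tested probe sets by -0.10 and the split from 709 higher and 585 lower to 463 and 898. The median difference of the 8 members was 1.15, beside 0.02 over all tested probe sets. The same 5 genes were highest in fad2 of 6 lines at both temperatures, as were 14% of tested probe sets. RAB18 and LTP3 were lower in the cold and higher in fad2, as were 0.732% of tested probe sets, and 0 members were higher in both, against 0.63%. Against the mean of the 5 other lines the 5 still passed, with RAB18 at 0.78 (adjusted p = 0.0415), RD29B at 1.16 (0.0238), LTP3 at 2.1 (0.000835), LTP4 at 3.80 (0.00314) and AT3G02480 at 2.09 (0.00494).

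Col-aeq lay above Col-0 for several of these genes. In a comparison added after the data were seen, fitted with the others, limma called 0 members between these lines (0.117% of tested probe sets passed), and 3 members had an unadjusted p under 0.05, where 15.7% of tested probe sets did. They were LTP3 (1.4, SE 0.286, adjusted p = 0.0938), RAB18 (1.07, SE 0.284, adjusted p = 0.149) and ATHB7 (-0.56, SE 0.197, adjusted p = 0.233). At ambient temperature Col-aeq was above Col-0 by 1.41 for RAB18, 1.32 for AT3G02480, 1.3 for LTP3 and 0.97 for RD29B, and in the cold by 0.73, 0.50, 1.5 and 0.07. Without both Col-aeq arrays the difference of fad2 from Col-0 was 1.58 for RAB18 (adjusted p = 0.00295), 1.51 for RD29B (0.00855), 3.23 for LTP3 (0.000273), 4.82 for LTP4 (0.00276) and 2.6 for AT3G02480 (0.00431). RAB18 no longer passed without either Col-0 array (adjusted p 0.0644 and 0.0817), nor did RD29B (0.0863 and 0.0895). RD29B also missed the threshold without either fab1 array (0.0538 and 0.0541), and without the signal filter both RAB18 (0.0536) and RD29B (0.0729) did. Without either fad2 array, RAB18, RD29B, LTP4 and AT3G02480 no longer passed (adjusted p 0.0553 to 0.346). Without the ambient and without the cold fad2 array the differences were 4.59 and 4.43 for LTP4, 2.23 and 2.05 for AT3G02480 and 1.17 and 0.92 for RAB18, near those with both arrays. For RD29B they were 1.81 and 0.69.

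The synthesis gene and both transcription factors did not pass in fad2. NCED3 stood at 0.59 (SE 0.344, adjusted p = 0.315), with the highest ambient signal of the 6 lines (25.3, next 20.4) and a cold signal below those of fad3/7/8, Col-aeq and 35S-FAD3. RD26 stood at -0.44 (SE 0.228, adjusted p = 0.256), with the lowest cold signal of the 6 lines, 336.8. ATHB7 stood at 0.05 (SE 0.171, adjusted p = 0.876), and its sign turned to -0.05 under median centring. Leaving out the Col-aeq cold array made NCED3 pass (0.91, adjusted p = 0.0447). Of the 10 other tested genes of the pathway lists, 0 were higher in fad2 and 1 was lower, where 5.19% and 4.29% of tested probe sets were. The lower gene was HIS1-3 (-1.35, SE 0.24, adjusted p = 0.00954), with signals of 29.2 and 26.4 in fad2 and 25 to 143.3 on the other arrays. The cold-regulated genes did not pass in fad2, with LTI30 at -0.03 (SE 0.108), COR47 at -0.11 (SE 0.126), COR15A at 0.38 (SE 0.252), COR15B at 0.07 (SE 0.353) and LEA4-5 at 0.53 (SE 0.353). NXD1 stood at 0.17 (adjusted p = 0.511) in fad2 and UGT71C5 at 0.10 (adjusted p = 0.707).

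Some root markers were higher in fad2 too. Of 29 root markers listed, 8 were paired with a probe set, so most of the list was not read. The root list was chosen with earlier results of these data known. No count from it, in fad2 or in the cold, is therefore support for a difference from the background. Of the 8, 4 were higher and 0 lower (median 0.78), where 5.19% and 4.29% of tested probe sets were. The 4 were the peroxidase genes AT4G26010 (2.06, SE 0.305), AT5G17820 (1.11, SE 0.202) and AT4G11290 (0.81, SE 0.191), and the expansin gene EXPA18 (0.96, SE 0.24). None of the 8 was at or near 0. Their summed signal was 3283 and 3066 in fad2 and 2607 to 3392 on the other arrays; this sum is mostly that of PYK10, a root glucosidase, which stood at -0.14 (adjusted p = 0.398). Without PYK10 the sums were 997 and 797 in fad2 and 318 to 592 elsewhere. The leaf genes RCA and LHCB4.1 stood at -0.02 (adjusted p = 0.912) and -0.17 (adjusted p = 0.275). In the cold 2 of the 8 root markers fell, AT4G26010 (-0.72, adjusted p = 0.019) and AT4G30170 (-0.41, adjusted p = 0.0098), where 18.4% of tested probe sets did. LHCB4.1 fell too (-0.31, adjusted p = 0.00253). The part of root tissue in the differences of the 8 genes was not tested, and no seed storage gene of the list had a named probe set.

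The cold changes of the members within each line are set side by side in the plot of cold change by line. In fad2 the change was 1.44 for NCED3, the lowest of 6 lines, and 1.39 for RD29B, the highest, where the other lines ranged from -0.46 to 0.93. The test of the fad2 cold change against that of the 5 other lines gave 1.11 for RD29B (SE 0.483, unadjusted p = 0.0446) and -1.15 for NCED3 (SE 0.537, unadjusted p = 0.0588). By limma 0 of the 13652 probe sets passed this test (adjusted p = 1.00 for each member), and 394 had an unadjusted p under 0.05. A single fad2 difference entered it, so only large differences could be seen. For the other 6 members the difference was -0.29 to 0.35.

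**Figure D3:**
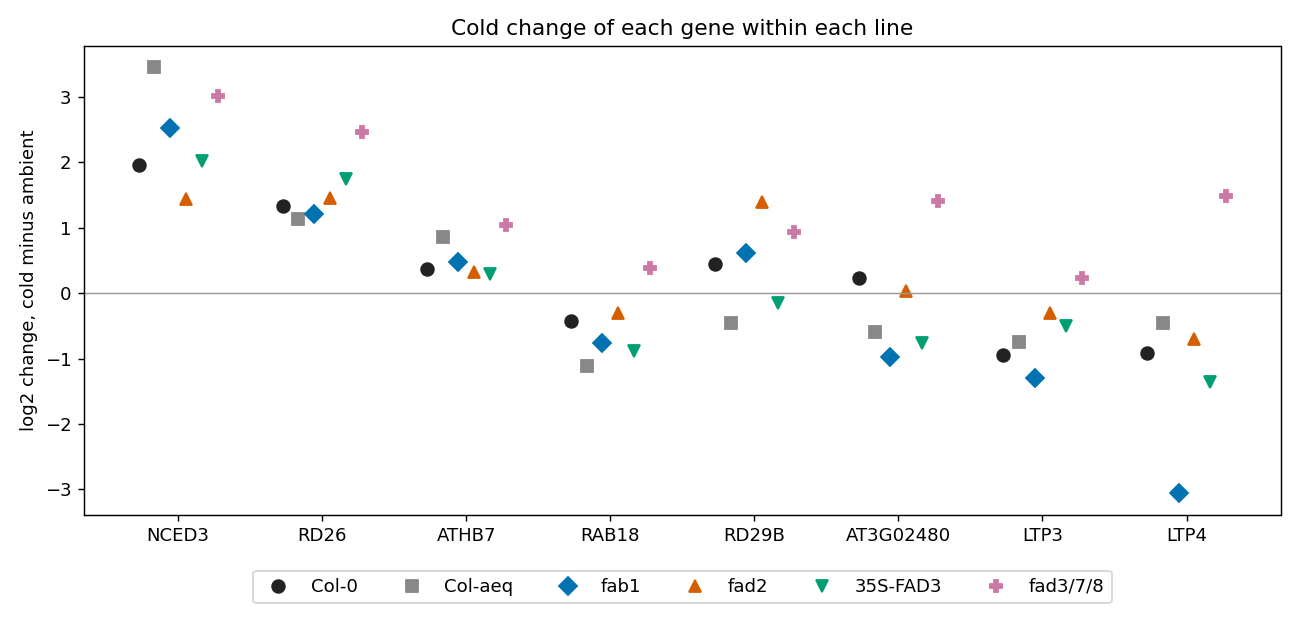
Cold change (log2, cold minus ambient) of each gene within each line, 1 point per line with no error bar because each rests on 2 arrays. The fad3/7/8 points are above 0 for 8 of 8 genes, alone in this for RAB18, LTP3 and LTP4.

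In the triple mutant fad3/7/8 all 8 members had a higher signal in the cold. Of these, NCED3, RD26 and ATHB7 rose in 6 of 6 lines, RD29B in 4 and AT3G02480 in 3. How many of all tested probe sets were higher in the cold in fad3/7/8 was not counted. The cold difference of RAB18 was 0.39 there, against -1.11 to -0.31 in the other 5 lines, that of LTP3 was 0.23 against -1.3 to -0.30, and that of LTP4 was 1.48 against -3.06 to -0.45. Among tested probe sets 1.65% were higher in the cold in fad3/7/8 and lower in the 5 other lines. The cold difference of AT3G02480 was 1.4 in fad3/7/8 and -0.98 to 0.22 elsewhere. These values were picked after they were seen, so they have no test. In the cold fad3/7/8 had the second highest signal, after fad2, for the 5 effector genes, an order found for 3.29% of tested probe sets, while at ambient temperature at least 3 lines lay above it for each of them. It also had the highest cold signal of the 6 lines for NCED3 (116.3), RD26 (603.1) and ATHB7 (188.1).

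Over both temperatures no member passed in fad3/7/8, 35S-FAD3 or fab1 against the control lines, where 0.0366%, 0.19% and 0.0146% of tested probe sets passed. At an unadjusted p under 0.05 there were 3 members in fad3/7/8, 1 in 35S-FAD3 and 0 in fab1, where 12.5%, 12.4% and 6.14% of tested probe sets had one. In fad3/7/8 LTP4 stood at 2.27 (SE 0.635, adjusted p = 0.247), LTP3 at 1.03 (SE 0.247, adjusted p = 0.209) and RAB18 at 0.57 (SE 0.246, adjusted p = 0.385). Without both Col-aeq arrays, LTP3 (1.73, adjusted p = 0.00908) and RAB18 (1.11, adjusted p = 0.0272) passed in fad3/7/8, and LTP3 passed in 35S-FAD3 (1.29, adjusted p = 0.0396). Without the Col-aeq cold array alone, LTP3 (0.98, adjusted p = 0.0322) and LTP4 (2.38, adjusted p = 0.0411) passed in fad3/7/8. In fab1 the members stood between -0.26 for AT3G02480 and 0.53 for LTP3. The fad2 comparison and these share the control arrays.

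**Figure D4:**
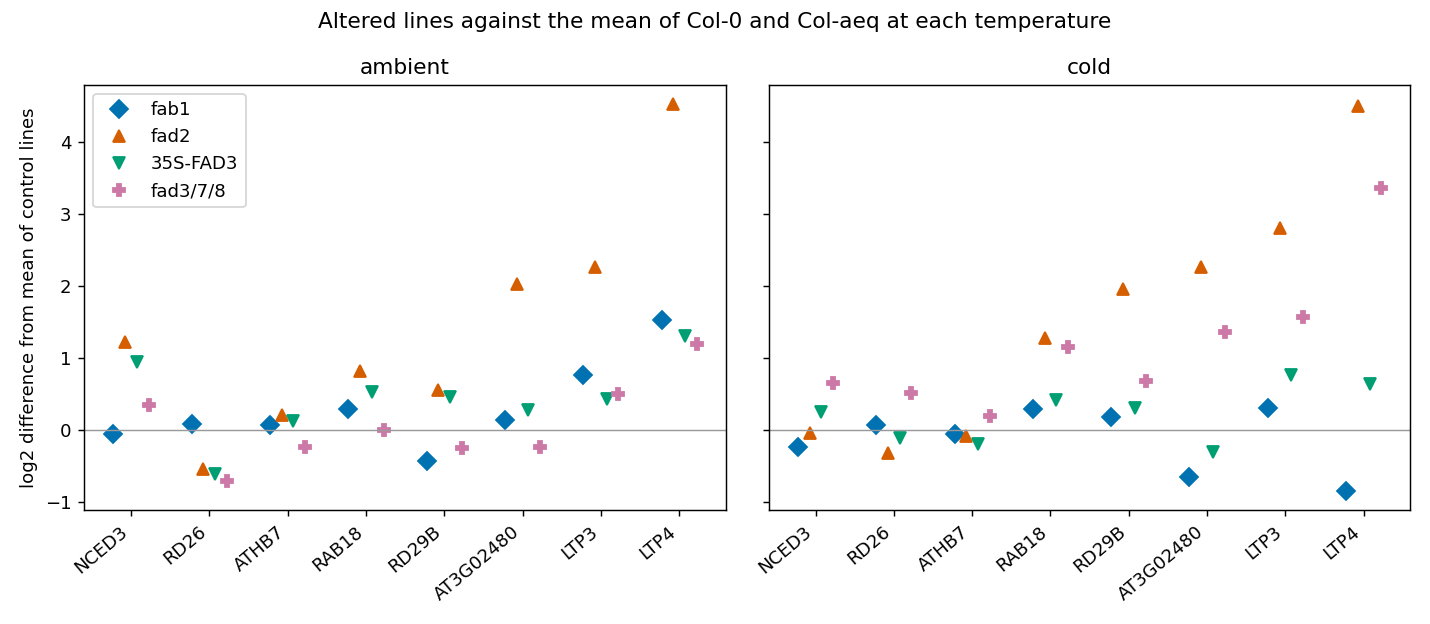
Difference of each altered line from the averaged control lines, Col-0 and Col-aeq (log2), at ambient temperature and in the cold, 1 point per array with no error bar. The fad2 points are highest for RAB18, RD29B, AT3G02480, LTP3 and LTP4 in both panels, and the fad3/7/8 points are next to them in the cold.

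At each temperature on its own, with no test, fad2 differed from the control mean by 4.52 at ambient temperature and 4.50 in the cold for LTP4, by 2.25 and 2.8 for LTP3, by 2.03 and 2.25 for AT3G02480, by 0.81 and 1.27 for RAB18, and by 0.55 and 1.95 for RD29B. The values for LTP4 and AT3G02480 were thus similar at both temperatures, while that of RD29B was larger in the cold. In fad3/7/8 the ambient and cold values were 1.19 and 3.35 for LTP4, 0.49 and 1.57 for LTP3, -0.24 and 1.35 for AT3G02480, -0.01 and 1.15 for RAB18, and -0.26 and 0.68 for RD29B.

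The genes most like each member were found by Pearson's r of log2 signals over the 12 arrays, among 7266 tested probe sets with 1 named gene. The arrays share lines and temperatures, so these values are descriptions. For NCED3 the closest were AT3G27880 (r = 0.974) and AT1G73480 (0.970), for RD26 the glycosyltransferase UGT72B3 (0.965) and AT1G75810 (0.963), and for ATHB7 AT4G38710 (0.936) and AT1G02750 (0.931). All 6 rose in the cold, a pattern for which they were picked. For LTP3 they were AT1G50290 (0.914) and AT4G32460 (0.885), for LTP4 the citrate lyase subunit gene ACLA-2 (0.907) and AT2G30695 (0.898), and for AT3G02480 again ACLA-2 (0.892) and AT3G03270 (0.865). These 5 genes were higher in fad2, led by AT1G50290, with signals of 216.0 and 206.0 in fad2 and 45.4 to 94.1 elsewhere (1.73, SE 0.168). They were picked for likeness to members high in fad2 on the same arrays, so this is no separate result. For RAB18 the closest were AT5G41180 (0.878) and AT1G29040 (0.860), and for RD29B the chaperonin gene Cpn60beta3 (0.856) and AT3G09405 (0.834). Closest to the mean of the 8 centred members was SBTI1.1, a subtilase gene, at 0.829, followed by AT5G40590, AT1G18390, AT3G08630 and AT5G48900 at 0.822 to 0.813.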

How the data were processed

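The authors deposited 1 linear intensity, the MAS5 signal, for each probe set and array. Per the submitters' processing notes, MAS5 and GCOS were used; no version is stated there. The trimmed mean was 100.0 on every array, so no further scaling was applied. Tests used log2(signal + 1.6), a pseudocount taken at the 10th percentile of the values, which understates fold changes of low signals. Probe sets with a mean at or above the 40th percentile of means (22.9), without the 64 Affymetrix controls, were tested with limma 3.58.1 in R 4.3.3, on line and temperature with 5 residual degrees of freedom and an intensity trend. The fad2 cold change was tested on the 6 within-line differences with 4. p-values were adjusted by Benjamini-Hochberg, two-sided. The tests were checked on simulated data. The simulated noise was independent between arrays, so it cannot show the spread between separate growths. Genes were named through the platform annotation and RefSeq TAIR10.1, which paired 27 of 195 listed genes with a probe set. The annotation listed no gene for 8794 of the 22810 probe sets, so an unpaired gene may still be on the array. Named from the lists were up to 4 genes that passed, or the 2 with the lowest p. Some further list genes, named beyond this rule, were chosen after their values were seen. Like genes were the 2 closest to each member and the 5 closest to their mean. The members and lists were chosen with earlier results of these data known. For arrays no read depth exists, and their number limits the precision. Tables were made with pandas 2.3.3 in Python 3.11.15.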

Additional observations from a re-analysis of the deposited data

Results flagged for a closer look

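In 5 cases a value of a member stood apart. The cold change of RAB18 was 0.39 on the log2 scale in fad3/7/8 and below 0 in the other 5 lines. For LTP3 it was 0.23 in fad3/7/8, again with the other 5 lines below 0. For LTP4 it was 1.48 in fad3/7/8 and below 0 in the other 5. Each rests on 2 arrays of fad3/7/8, and the difference between lines was not tested.

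Among the 6 cold arrays fad2 was the highest for RD29B, and its gap to the next array was 0.641 of the whole range, above Dixon's critical value for 6 samples. Among the 6 ambient arrays fad2 was the highest for LTP4, with a gap of 0.635 of the range on the same log2 scale. Chance flags about 1 in 20 groups, and 24 groups were examined. The 6 arrays of a temperature are different lines, not replicates.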

How the results depend on the processing

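The number of probe sets that differed in fad2 was 1294, and it moved to 683 with Col-0 alone as control and to 793 with no filter on low signals; leaving out 1 array gave 54 to 3414. Leaving out fad2 gave 54 (ambient array) and 154 (cold array), leaving out Col-0 gave 452 and 620, and leaving out the cold Col-aeq array gave 3414. Members called in the other altered lines numbered 0, but 1 with Col-0 alone, 3 without both Col-aeq arrays, and 0 to 2 when 1 array was left out. The cold count of 4573 stayed within 1.5 times in 22 of 22 alternatives, and the fad2 cold change test gave 0 calls in 13 of 13. For cold, NCED3, RD26 and ATHB7 passed in every alternative in which they were tested; for fad2, LTP3 did so in 23 of 23. Temperature alone, with no line block, ended the cold calls of RAB18 (adjusted p = 0.203) and LTP3 (0.431). Array weights brought RD29B past the threshold for cold (0.57, adjusted p = 0.0254). A filter at the 60th percentile left NCED3, RD29B and AT3G02480 untested. Signs turned only for differences that had not passed. AT3G02480 in the cold was 0.061 without either fab1 array and 0.0187 without either 35S-FAD3 array, in a range of -0.415 to 0.061. ATHB7 in fad2 was -0.0507 under median centring, -0.23 without both Col-aeq arrays and with Col-0 alone, and -0.0914 to 0.20 when 1 array was left out, with -0.035 without Col-aeq ambient and -0.0029 without Col-0 cold. In the test of the fad2 cold change, leaving out 1 line gave RD26 -0.23 to 0.10 (highest without fad3/7/8), LTP4 -0.39 to 0.74 and AT3G02480 -0.026 to 0.57 (both lowest without fab1), and LTP4 was -0.19 with the larger pseudocount. The cause of these shifts was not tested. The line was a block in the fit, which pairs the ambient and cold array of each line; no block by replicate number was possible because every array is labelled replicate 1. Signals near the filter level, as for NCED3 at ambient temperature and LTP4 in the control lines, limit how well fold sizes are known.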
